A study of Mus musculus with 9 samples.

Results

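H4K91Q cultures were compared directly with H4K91R cultures, 3 libraries against 3, over all 24100 genes of a table of 9 libraries. The remaining 3 libraries, H4WT, place the levels of the mutants. They also enter the fit, through the filter on low counts, the scaling and the shared estimate of spread. The 6 libraries are all those labelled H4K91Q or H4K91R. Poly(A) RNA was measured in mouse cells, neural by label, that had been derived from embryonic stem cells. Every group, H4WT included, stably carried a PiggyBac transgene (a DNA transposon vector) for histone H4 with a 3HA tag, a short peptide repeat seen by an antibody. The tagged histone had its normal lysine 91 in H4WT, arginine in its place in H4K91R and glutamine in H4K91Q. A group without a transgene was not analysed here. The labels give neither the promoter of the transgene, nor whether a group is 1 clone or a pool, nor whether its 3 libraries are separate differentiations, so p-values measure the spread between these libraries only. They name no change to the cells' own H4 genes.

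Lysine 91 of H4 lies in the folded core of the histone, where the H3-H4 tetramer meets the H2A-H2B dimers. It can be acetylated, which removes its positive charge, and it can be ubiquitylated. Arginine keeps the charge and cannot be acetylated, and glutamine, which is neutral, is often used to imitate the acetylated state. When embryonic stem cells differentiate towards neurons, they switch off the transcription factors of pluripotency, pass through a state like the early epiblast, and become neural progenitors. The progenitors hold back from differentiation through Notch signalling, and their daughters switch on genes of axons and synapses.

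Total counts were 16704020, 12013052 and 9743050 in H4K91R, 22661768, 19365792 and 16364686 in H4K91Q, and 8970553 to 28887501 in H4WT. A gene with no count was thus below 0.129 to 0.295 CPM (counts scaled to library depth) in the mutant libraries, taking 3 counts as the limit that a count of 0 allows, for counting error only. On the first principal component of the 6 mutant libraries, with 46.8% of the variance, H4K91R lay at -27.3, -19.2 and -14.9 and H4K91Q at 16.8, 27.9 and 16.7. The next component, with 19.3%, set H4K91R replicate 3 at -26.8 apart from the other 2 H4K91R libraries, at 16 and 2.86. Markers of neurons and neural progenitors were present in all mutant libraries, with Dcx between 114 and 190 CPM and Fabp7 between 207 and 382 CPM. Markers of other cell types were also present, among them Krt8 at 269 to 352 CPM (epithelium) and Col3a1 at 3150 to 4350 CPM (fibroblasts). Endoderm markers differed widely in level. Sox17 stood at 184 to 242 CPM, but Afp stood at only 0.393 to 1.08 CPM. Ttr stood at 9.16 to 11.5 CPM in H4K91R and at 8.50 CPM or more in H4K91Q, also far below Sox17. The astrocyte gene Aqp4, the Schwann cell gene Sox10, the blood cell gene Ptprc and the muscle regulators Myog and Myod1 were at or near 0, at most 0.343 CPM.

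Of 14761 genes with enough counts to be tested, 761 (5.16%) were called different between H4K91Q and H4K91R (edgeR quasi-likelihood test, Benjamini-Hochberg adjusted p below 0.05). Called genes were 350 higher in H4K91Q (2.37%) and 411 lower (2.78%). The directions differed in size. At least 2-fold higher were 138 genes (0.935%), against 13 at least 2-fold lower (0.0881%), and at least 4-fold higher were 56 genes, against 0 lower (1 at an unadjusted p below 0.05). The 3 H4K91Q libraries did not overlap the 3 H4K91R libraries for 3747 genes (25.4%), among them 760 of the 761 called. The median log2 difference over all tested genes was 0.00535, so the scaling put the groups level. Counts of called genes rested on single libraries. Without H4K91Q replicate 2 there were 110 higher and 92 lower, without H4K91R replicate 2 there were 120 and 68, and without H4K91Q replicate 1 there were 200 and 98. Without H4K91R replicate 1 there were 146 and 264, and without H4K91Q replicate 3 there were 543 and 550. Lower calls outnumbered higher ones with all libraries, but higher ones outnumbered lower ones without H4K91R replicate 2 or 3 or H4K91Q replicate 1 or 2. DESeq2 split the calls into 346 higher and 619 lower.

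**Figure D1:**
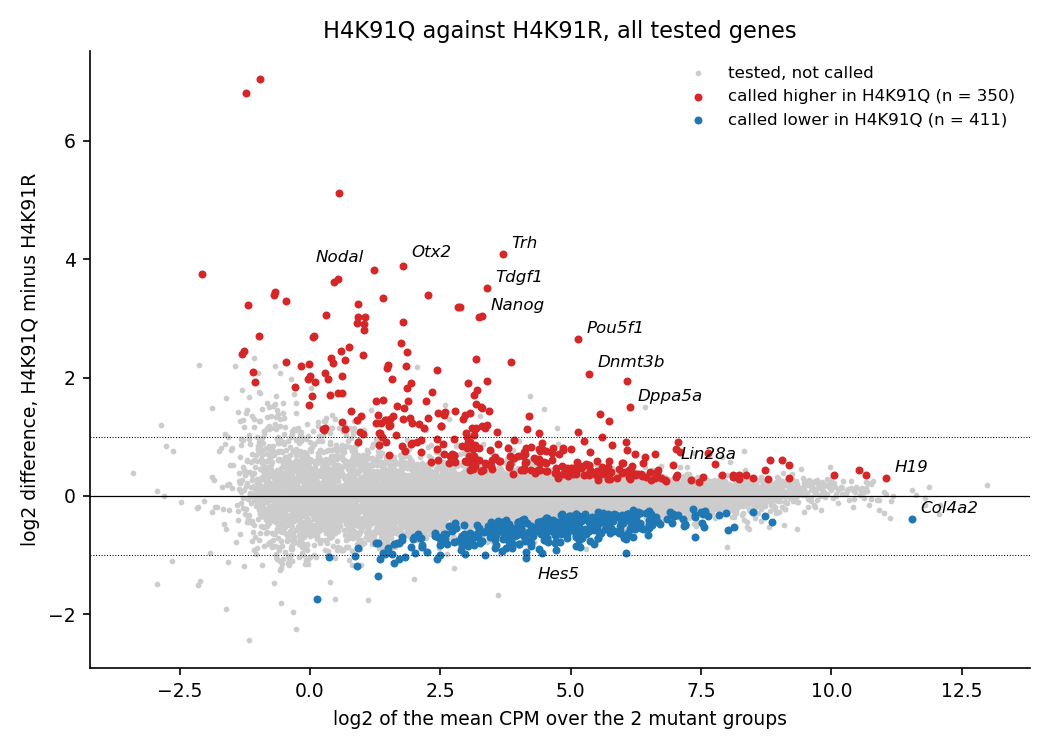
Each point is a tested gene, at the log2 of its mean CPM over both mutant groups (x axis) and the log2 difference H4K91Q minus H4K91R (y axis). Called genes are in colour, 350 higher and 411 lower, and the dotted lines mark 2-fold. The called genes past 2-fold lie nearly all above the upper line (138 against 13), many of them at low mean CPM.

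Genes of pluripotency were higher in H4K91Q. Of 33 tested genes on a list of naive and core pluripotency factors and their companions, 22 were called higher and 0 lower, with a median log2 difference of 1.70, while 2.37% of all tested genes were called higher. The 22 include Dppa3, which passed the filter on low counts through H4K91Q alone. In bulk RNA, fewer cells of a type and less RNA of that type per cell cannot be told apart. Nanog, a homeodomain factor of the pluripotent state (Entrez 71950, chromosome 6, 122707489 to 122714633), stood at 1.38, 2.04 and 3.25 CPM in H4K91R and at 14.1, 22.2 and 15.8 CPM in H4K91Q. Its H4WT levels were 3.37, 4.74 and 3.31 CPM. Every H4K91Q library was well above every other library, and H4WT lay just above H4K91R. The log2 difference was 3.04 ± 0.26 (SE, n = 3 libraries per group), with an adjusted p of 0.000273 (edgeR).

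Pou5f1 encodes OCT4, the POU factor that pluripotency depends on (Entrez 18999, chromosome 17, 35506032 to 35510777). It stood at 6.85, 11.2 and 11.7 CPM in H4K91R, at 47.5, 77.1 and 58.4 CPM in H4K91Q and at 19, 35.2 and 19.7 CPM in H4WT. The 3 groups did not overlap, with H4WT in the middle, and the mutants differed by 2.65 ± 0.26 on the log2 scale (adjusted p = 0.000429, edgeR). Zfp42, the stem cell marker REX1 (Entrez 22702, chromosome 8, 43295067 to 43307009), stood at 3.17, 4.25 and 5.32 CPM in H4K91R and at 10.2, 18.9 and 13.8 CPM in H4K91Q. Here H4WT, at 6.61, 11.4 and 6.98 CPM, overlapped H4K91Q, and the log2 difference of the mutants was 1.79 ± 0.27 (adjusted p = 0.00439, edgeR). Esrrb, a nuclear receptor of naive stem cells, differed otherwise. Its H4K91R levels of 3.28, 5.11 and 4.14 CPM overlapped the H4WT levels of 3.25, 4.74 and 3.06 CPM, and only H4K91Q, at 10.5, 15.9 and 14.1 CPM, stood apart from both.

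The 240 bases before the RefSeq start are shown for Nanog and Zfp42, since these members moved together and both stretches hold the octamer word ATGCAAA, which POU factors can bind. Capitals mark ATGCAAA and the SOX-type word CATTGT, on either strand. Sequences are from RefSeq, build GRCm38.p6, 5′ to 3′ on the gene's strand, for chr6:122707249-122707488 (plus strand) and chr8:43307010-43307249 (minus strand).
Nanog: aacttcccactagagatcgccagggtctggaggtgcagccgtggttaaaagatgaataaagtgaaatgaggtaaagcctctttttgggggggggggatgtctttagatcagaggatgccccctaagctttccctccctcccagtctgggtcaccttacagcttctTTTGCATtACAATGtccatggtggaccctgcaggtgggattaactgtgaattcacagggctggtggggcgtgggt
Zfp42: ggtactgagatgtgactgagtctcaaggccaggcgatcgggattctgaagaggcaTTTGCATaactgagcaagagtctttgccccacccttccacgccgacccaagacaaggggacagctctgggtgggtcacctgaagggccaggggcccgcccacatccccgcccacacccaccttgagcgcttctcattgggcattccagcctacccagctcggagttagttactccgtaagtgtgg
In Nanog both words read on the other strand, ATGCAAA from 75 bases and CATTGT from 67 bases before the start, without sharing a base. In Zfp42, ATGCAAA reads on the other strand from 185 bases before the start. A 300-base window around the start was listed for 11629 of the 14761 tested genes, and 3.43% of these windows held ATGCAAA on either strand and 7.05% held CATTGT. Among 14 of the 22 called pluripotency members with a window, 2 held ATGCAAA and 3 held CATTGT. Among the 268 genes called higher with a window, 18 held ATGCAAA (6.72%). A match of letters is a description of the window and not a binding site.

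Signalling genes of the pluripotent cell were also higher. Tdgf1, the Nodal co-receptor Cripto, stood at 0.518, 2.28 and 2.66 CPM in H4K91R and 12.3, 25.3 and 19.6 CPM in H4K91Q, a log2 difference of 3.51 ± 0.43. Lefty1 and Lefty2 encode secreted inhibitors of Nodal. They rose from at most 0.708 CPM in any H4K91R library to at least 2.83 CPM in every H4K91Q library, with log2 differences of 2.38 and 2.93. Gdf3, a ligand of the TGF-beta family, was at 0, 0.393 and 0.295 CPM in H4K91R and at 2.06, 3.14 and 2.81 CPM in H4K91Q. Fgf4, the growth factor that primes stem cells for differentiation, stood at 0, 0.865 and 0.689 CPM in H4K91R and 3.22, 5.58 and 5.39 CPM in H4K91Q. Tdh, a threonine dehydrogenase on which mouse stem cells rely for one-carbon units, was higher by 2.27 ± 0.21, from a mean of 5.02 to 23.9 CPM. Each of these genes separated the mutant groups fully, and the H4WT mean of each lay between the mutant means. Lefty2 and Gdf3 passed the filter on low counts through H4K91Q alone, the group where they are high. Their calls and their separation are thus only a description.

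Dppa2, Dppa3, Dppa4 and Dppa5a, which are expressed in early embryos, stem cells and germ cells, were all called higher. Dppa5a stood at 27.0, 33.1 and 50.3 CPM in H4K91R and at 72.0, 146 and 92.0 CPM in H4K91Q, with H4WT at 73.6, 133 and 83.9 CPM. H4WT was thus level with H4K91Q for this gene, and H4K91R was the group apart. Dppa4, whose protein binds chromatin together with that of Dppa2, stood at 0.345, 1.65 and 0.394 CPM in H4K91R and 3.60, 8.12 and 6.45 CPM in H4K91Q. Dppa3 was at 0, 0.157 and 0.0985 CPM in H4K91R, which is 3 counts or fewer, and at 2.79, 4.09 and 1.70 CPM in H4K91Q. Since Dppa3 passed the filter on low counts through H4K91Q alone, its call is only a description. Lin28a, which blocks maturation of let-7 microRNAs, showed the smallest called difference of the list, at 0.52 ± 0.07, from 98.2, 100 and 107 CPM to 138, 151 and 148 CPM.

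The 11 members not called include factors that stem cells share with other tissues. Sox2, which neural progenitors also express, stood at 38.2, 54.3 and 52.0 CPM in H4K91R and 47.7, 56.5 and 56.8 CPM in H4K91Q (log2 difference 0.16 ± 0.12). Klf4 was at 133 to 152 CPM in H4K91R and 139 to 148 CPM in H4K91Q, a log2 difference of -0.00 ± 0.07. Tbx3 and Klf5 had log2 differences of 0.02 ± 0.10 and -0.11 ± 0.16. Klf2 reached 0.29 ± 0.08 with an adjusted p of 0.0513 (edgeR). Within H4K91Q, replicate 2 was the highest of the 3 libraries for 23 of the 33 members, and within H4K91R replicate 1 was the lowest for 23. The summed level of the list was 614, 668 and 673 CPM in H4K91R and 899, 1110 and 1020 CPM in H4K91Q, with 784, 942 and 852 CPM in H4WT. Across all 17 alternative fits 19 to 23 members were called higher, and of the called members named above Dppa5a alone lost its call, without H4K91R replicate 2 (adjusted p = 0.0649, edgeR).

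**Figure D2:**
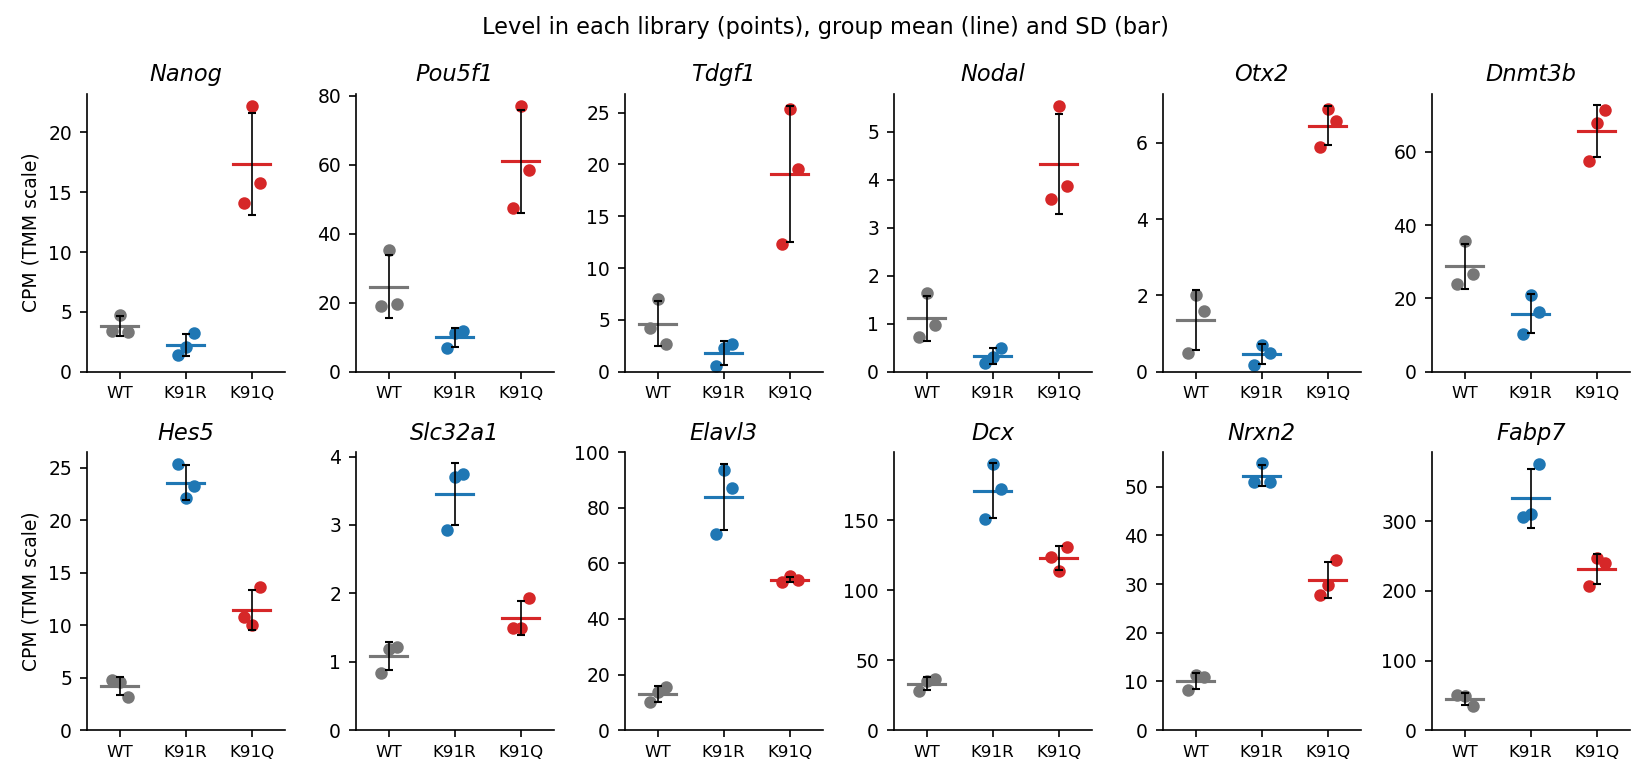
CPM in each library (points), group mean (line) and SD (bar) for 6 genes called higher in H4K91Q (upper row) and 6 called lower (lower row), in H4WT, H4K91R and H4K91Q. In the upper row the 3 H4K91Q libraries lie above all others. In the lower row H4K91R is highest, H4K91Q is below it, and H4WT is lowest.

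Genes of the primed epiblast and the primitive streak, the states that follow naive pluripotency, were higher as well. Of 16 tested members, 8 were called higher and 1 lower, with a median log2 difference of 0.87. Otx2, a homeodomain factor of the epiblast and later of the forebrain (Entrez 18424, chromosome 14, 48656781 to 48667644), stood at 0.173, 0.708 and 0.492 CPM in H4K91R and at 5.88, 6.88 and 6.56 CPM in H4K91Q. H4WT was at 0.481, 2.0 and 1.59 CPM, well below H4K91Q, and the log2 difference of the mutants was 3.89 ± 0.39 (adjusted p = 0.00043, edgeR). Nodal, the TGF-beta family ligand that maintains the epiblast (Entrez 18119, chromosome 10, 61417972 to 61425338), stood at 0.173, 0.315 and 0.492 CPM in H4K91R and 3.60, 5.53 and 3.87 CPM in H4K91Q. Its log2 difference was 3.81 ± 0.39 (adjusted p = 0.000445, edgeR), and no library of one mutant came near the other. Foxh1, a DNA-binding partner of the SMAD proteins that carry the Nodal signal, was higher by 3.03 ± 0.45.

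Brachyury (T), the primitive streak factor, stood at 1.21, 0.393 and 1.87 CPM in H4K91R and at 4.25, 6.38 and 7.79 CPM in H4K91Q (2.43 ± 0.42). Fgf5, a marker of the primed epiblast, stood at 2.99, 3.62 and 3.94 CPM in H4K91R and 7.08, 7.32 and 9.26 CPM in H4K91Q (1.18 ± 0.21). Eomes, a T-box factor of streak and endoderm, differed by 1.30 ± 0.27. The groups did not overlap for any of these genes, but Eomes lost its call without H4K91R replicate 2 or H4K91Q replicate 2 (highest adjusted p = 0.0838, edgeR). The member called lower was Sox3, a SOX factor of epiblast and neural progenitors, which is described with the latter. Of 19 tested genes of definitive and visceral endoderm, 0 were called by edgeR (6 at an unadjusted p below 0.05), 1 by DESeq2 and 0 by limma-voom, with a median of -0.004.

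The genes for de novo DNA methylation differed by member. Dnmt3b, the methyltransferase of the epiblast (Entrez 13436, chromosome 2, 153649411 to 153687730), stood at 10.4, 20.8 and 16.4 CPM in H4K91R and at 57.6, 67.9 and 71.4 CPM in H4K91Q. H4WT, at 24, 35.6 and 26.6 CPM, lay between the mutants without overlapping either, and the mutants differed by 2.07 ± 0.20 (adjusted p = 0.000429, edgeR). Dnmt3l, a catalytically inactive partner of the methyltransferases, stood at 0.633, 2.91 and 3.05 CPM in H4K91R and at 10.8, 23.6 and 15.4 CPM in H4K91Q (3.03 ± 0.45). Dnmt3a, the paralog used in later tissues, was level at 209 to 221 CPM in H4K91R and 205 to 230 CPM in H4K91Q (0.00 ± 0.07), as was the maintenance enzyme Dnmt1 (-0.12 ± 0.08). Of 18 tested genes of DNA methylation and demethylation, Dnmt3b and Dnmt3l were those called (11.1%, against 2.37% called higher over all tested genes).

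KRAB zinc finger genes, whose proteins recruit heterochromatin to repeats, were a further group. On a list of heterochromatin and KRAB silencing genes, 10 of 36 were called higher and 0 lower, with a median of 0.15. The share called higher was 27.8%, against 2.37% of all tested genes. Of the 10, 8 were zinc finger genes of 1 stretch of chromosome 4. Zfp980 (Entrez 100041379, chromosome 4, 145670697 to 145704437) stood at 0.518, 1.49 and 0.492 CPM in H4K91R and at 6.48, 12.7 and 7.03 CPM in H4K91Q (3.39 ± 0.40). Zfp987 stood at 1.84, 4.33 and 3.25 CPM in H4K91R and 11.3, 22.1 and 11.8 CPM in H4K91Q (2.31 ± 0.31). Replicate 2 was again the highest H4K91Q library for both, and neither overlapped between the mutants. Zfp534, Rex2, Zfp985 and Zfp979 were higher by 1.98, 1.90, 1.41 and 1.41 on the log2 scale. Among all 12 tested zinc finger genes of the stretch from 145670697 to 147849126, chosen after their values were seen, 9 were called higher, with a median of 1.66. These genes are close copies, and reads that match several of them may have been divided in the counting, so single values are uncertain. The remaining called members were Zfp932 (0.37) and Tasor (0.29), a subunit of the HUSH silencing complex. Without H4K91Q replicate 2, 6 members of the list were called.

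Germline genes, which DNA methylation keeps silent in other tissues, were called higher for 7 of 32 and lower for 0, with a median of 0.34. The share called higher was 21.9%, against 2.37% of all tested genes. Ddx4, the germ cell RNA helicase VASA, stood at 6.16, 6.29 and 6.99 CPM in H4K91R and at 9.43, 10.1 and 9.37 CPM in H4K91Q (0.58 ± 0.11). H4WT, at 12.3 to 13.3 CPM, was above both. Morc1, a silencing factor of the male germline that was outside the list, stood at 0.230, 0.786 and 0.492 CPM in H4K91R and 2.92, 4.98 and 2.93 CPM in H4K91Q (2.90 ± 0.37). Morc1 passed the filter on low counts through H4K91Q alone, so its call and fold are only a description. Prdm1, which specifies germ cells, differed by 1.35. Counts on this list were less stable than those of pluripotency genes, at 1 to 8 across the fits, with 1 without H4K91Q replicate 2 and 2 without H4K91R replicate 1 or replicate 2.

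The neural side moved the other way and by less. Of 30 tested neural progenitor genes 0 were called higher and 10 lower, with a median of -0.25, while 2.78% of all tested genes were called lower. Hes5, the bHLH repressor that Notch switches on in neural progenitors (Entrez 15208, chromosome 4, 154960626 to 154962372), stood at 25.4, 22.1 and 23.3 CPM in H4K91R, 10.8, 10 and 13.6 CPM in H4K91Q and 4.81, 4.56 and 3.18 CPM in H4WT. The 3 groups were fully apart, in that order, and the mutants differed by -1.05 ± 0.14 (adjusted p = 0.00174, edgeR). Fabp7, which radial glia use to carry fatty acids, stood at 306, 310 and 382 CPM in H4K91R and 207, 247 and 240 CPM in H4K91Q (-0.52 ± 0.12, adjusted p = 0.0277, edgeR). Ncan, a brain proteoglycan, stood at 53.7, 63.1 and 55.1 CPM in H4K91R and at 33.3, 32.9 and 38.2 CPM in H4K91Q (-0.72 ± 0.11). Sox3 stood at 19.8, 22.3 and 26.4 CPM in H4K91R and at 10.2, 14.1 and 16.1 CPM in H4K91Q (-0.76 ± 0.18). None of these genes overlapped between the mutants, and H4WT lay below both for 9 of the 10 called members.

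Other progenitor genes were not called. Pax6, an eye and forebrain determinant, stood at 12.4, 13.8 and 14.2 CPM in H4K91R and 11.2, 14.4 and 12 CPM in H4K91Q, with overlap (-0.10 ± 0.13). Sox1 differed by -0.51 ± 0.17 (adjusted p = 0.105, edgeR) and Nes, the intermediate filament nestin, by -0.38 ± 0.11 (adjusted p = 0.0722, edgeR), both without overlap of the libraries. Hes5 and Ncan kept their calls under every alternative fit, while Fabp7 and Sox3 lost theirs without H4K91R replicate 2 or 3 or H4K91Q replicate 1 or 2. The number of members called lower was 2 without H4K91R replicate 2, H4K91Q replicate 1 or H4K91Q replicate 2.

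Transcripts of the Notch pathway were called lower for 6 of 23 tested genes and higher for 0, with a median of -0.34. The share called lower was 26.1%, against 2.78% of all tested genes. Among the ligands, Dll1 stood at 30.4, 36.7 and 30.2 CPM in H4K91R and 21.7, 24.6 and 24.8 CPM in H4K91Q (-0.45 ± 0.11), and Dll3 differed by -0.74 ± 0.17. The receptor gene Notch1 stood at 106, 102 and 83.7 CPM in H4K91R and at 65.0, 56.2 and 79.2 CPM in H4K91Q (-0.54 ± 0.13, adjusted p = 0.0305, edgeR). Its H4K91R replicate 3 and H4K91Q replicate 3 nearly met. Lfng, a glycosyltransferase that tunes the receptor, and Dlk2, a non-canonical ligand, differed by -0.60 and -0.99. Among the targets Hes5 was lower, while Hes1 was level, at 66.4 to 77 CPM in H4K91R and 63.1 to 65.5 CPM in H4K91Q (-0.12 ± 0.08). Without H4K91R replicate 1, 2 members were called lower, and without H4K91R replicate 2, H4K91Q replicate 1 or H4K91Q replicate 2, 1 member.

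Of 22 proneural and neurogenic factors, which start neuronal differentiation, 0 were called higher and 4 lower, with a median of -0.40. The 4 (18.2%, against 2.78% of all tested genes) were St18, Nhlh1, Dll3 and Insm1. St18, a zinc finger factor of young neurons, stood at 5.75, 6.37 and 4.83 CPM in H4K91R and 3.04, 3.59 and 2.99 CPM in H4K91Q (-0.82 ± 0.17). Without H4K91R replicate 2 or H4K91Q replicate 1, 0 of the 22 were called by edgeR, and without H4K91Q replicate 2, 1 was. With all libraries 13 had an unadjusted p below 0.05, and DESeq2 and limma-voom each called 5.

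Genes of the neuronal cytoskeleton and of neuronal RNA-binding proteins were called lower for 17 of 34 and higher for 1, with a median of -0.43. Elavl3, an RNA-binding protein of neurons (Entrez 15571, chromosome 9, 22015005 to 22052146), stood at 70.6, 93.7 and 87.2 CPM in H4K91R, 53.2, 55.3 and 54.0 CPM in H4K91Q and 10.1, 13.6 and 15.7 CPM in H4WT. The mutants did not overlap (-0.63 ± 0.12, adjusted p = 0.0108, edgeR), and both stood several times above H4WT. Dcx, the microtubule protein of migrating neurons, stood at 151, 190 and 172 CPM in H4K91R and 124, 114 and 131 CPM in H4K91Q (-0.48 ± 0.10). Map2, a dendritic microtubule protein, stood at 199, 250 and 214 CPM in H4K91R and 157, 143 and 162 CPM in H4K91Q (-0.52 ± 0.11). For both, H4K91R replicate 1 came closest to the H4K91Q libraries without reaching them.

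Celf3 and Celf5, splicing regulators of the nervous system, differed by -0.84 ± 0.16 and -0.58 ± 0.08, and Dpysl5, a phosphoprotein of growth cones, by -0.66 ± 0.10. Tubb3, the neuronal tubulin, stood at 170, 196 and 230 CPM in H4K91R and 121, 148 and 148 CPM in H4K91Q and had an adjusted p of 0.0575 (edgeR). The member called higher was Prph, an intermediate filament of peripheral neurons, at 3.57, 3.54 and 5.42 CPM in H4K91R and 6.43, 8.67 and 7.38 CPM in H4K91Q (0.87 ± 0.22). It lost its call in 6 fits, those without H4K91R replicate 1 or 2 or any H4K91Q replicate and the one on thinned counts. Members lower numbered 2 without H4K91R replicate 2, 3 without H4K91Q replicate 1, 4 without H4K91Q replicate 2 and 11 without H4K91R replicate 3. The median stayed between -0.53 and -0.35 across all fits. Dpysl5 and Celf5 were called in all fits, and Elavl3 in all but the one without H4K91R replicate 2 (adjusted p = 0.0597, edgeR), while Dcx, Map2 and Celf3 lost their calls without H4K91R replicate 2, H4K91Q replicate 1 or H4K91Q replicate 2.

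Synapse and secretory vesicle genes were called lower for 17 of 36 (47.2%, against 2.78% of all tested genes) and higher for 0, with a median of -0.46. Their summed level was 1020, 1120 and 1100 CPM in H4K91R, 785, 802 and 827 CPM in H4K91Q and 425, 458 and 473 CPM in H4WT. Nrxn2, a presynaptic adhesion protein, stood at 51.0, 54.8 and 51.0 CPM in H4K91R and 27.7, 29.9 and 35.0 CPM in H4K91Q (-0.76 ± 0.11). Sv2a, a vesicle glycoprotein, stood at 33.5, 30.4 and 31.3 CPM in H4K91R and at 19, 20.2 and 21.0 CPM in H4K91Q (-0.66 ± 0.11). Both separated the groups and kept their calls in all fits.

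On the receiving side of the synapse, Grin1, the obligate NMDA receptor subunit, stood at 6.39, 6.76 and 8.57 CPM in H4K91R and 4.16, 4.33 and 4.10 CPM in H4K91Q (-0.77 ± 0.16). Shank1, a scaffold of the postsynaptic density outside the list, differed by -1.0 ± 0.17, from a mean of 13.7 to 6.90 CPM. All 3 Adgrb genes, adhesion receptors of brain synapses that were chosen after their values were seen, were lower, by -0.80, -0.66 and -0.55 for Adgrb1, Adgrb2 and Adgrb3. The count of synapse members called lower was 3 without H4K91R replicate 2, 4 without either H4K91Q replicate 1 or 2, and 9 without H4K91R replicate 3, while the median stayed between -0.50 and -0.41. Grin1 lost its call without H4K91R replicate 2 or 3 or H4K91Q replicate 1 or 2. Adgrb1 and Adgrb2 lost theirs in 2 fits each and Adgrb3 in 6.

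The 240 bases before the RefSeq start are shown for 2 called synapse genes, Sv2a and Cplx1 (complexin, which clamps vesicle fusion), since both hold the E-box word CAGCTG that proneural bHLH factors can bind. Cplx1 differed by -0.65 ± 0.17 (adjusted p = 0.0404, edgeR). It lost its call in 5 of 17 fits, those without H4K91R replicate 2 or 3 or any H4K91Q replicate. CAGCTG reads the same on both strands and is in capitals. The stretches are chr3:96180987-96181226 (plus strand) and chr5:108550028-108550267 (minus strand) of GRCm38.p6, from RefSeq.
Sv2a: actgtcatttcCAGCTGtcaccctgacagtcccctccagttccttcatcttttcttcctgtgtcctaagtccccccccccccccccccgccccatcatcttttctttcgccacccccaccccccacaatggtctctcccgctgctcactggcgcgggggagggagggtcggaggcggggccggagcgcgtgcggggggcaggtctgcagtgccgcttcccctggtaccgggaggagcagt
Cplx1: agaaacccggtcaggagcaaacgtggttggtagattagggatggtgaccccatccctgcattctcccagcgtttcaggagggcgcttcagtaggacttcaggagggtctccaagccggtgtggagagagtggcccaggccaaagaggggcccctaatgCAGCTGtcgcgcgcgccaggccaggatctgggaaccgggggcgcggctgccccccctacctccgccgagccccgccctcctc
The word starts 229 bases before the start in Sv2a and 82 bases before it in Cplx1. It was in 15.1% of the windows of all tested genes, in 60 of 312 windows of genes called lower and in 11 of 25 windows of called neuronal and synapse members (44.0%). The neuronal members were chosen by their function and share other features, such as the GC content of their windows, whose median was 65.3% against 61.0% over all tested genes.

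Genes of inhibitory transmission were among those lower. Slc32a1, the vesicular GABA transporter, stood at 2.93, 3.70 and 3.74 CPM in H4K91R, 1.5, 1.49 and 1.93 CPM in H4K91Q and 0.842, 1.19 and 1.22 CPM in H4WT (-1.07 ± 0.21, adjusted p = 0.0156, edgeR). Gad2, a GABA-synthesizing enzyme, differed by -0.80 ± 0.19, and Slc6a11, another GABA transporter outside the list, by -1.07 ± 0.24. The groups did not overlap for these genes. Gad1, the second GABA-synthesizing enzyme, was not called at -0.54 ± 0.15 (adjusted p = 0.0647, edgeR), nor was Slc17a6, a vesicular glutamate transporter, at -0.41 ± 0.26 (adjusted p = 0.385, edgeR). Of 13 tested genes on the transmitter list 3 were called lower (1 without H4K91R replicate 2, H4K91Q replicate 1 or H4K91Q replicate 2) and 0 higher, and whether GABA and glutamate genes differ from each other was not tested. The 3 are 23.1% of the list, against 2.78% of all tested genes. Slc32a1, Slc6a11 and Gad2 lost their calls in 4, 4 and 8 of 17 fits, each time including those without H4K91R replicate 2, H4K91Q replicate 1 or H4K91Q replicate 2.

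Regional identity genes were described by several lists. Of 33 tested Hox genes, which mark position along the hindbrain and spinal cord, 6 were called lower and 0 higher, with a median of -0.20. The 6 are 18.2% of the list, against 2.78% of all tested genes. Hoxb8 stood at 92.4, 118 and 111 CPM in H4K91R, 74.6, 82.8 and 78.7 CPM in H4K91Q and 36.0 to 38.8 CPM in H4WT (-0.44 ± 0.09). Hoxa6 stood at 4.43, 5.58 and 6.01 CPM in H4K91R and 2.10, 2.79 and 3.34 CPM in H4K91Q (-0.96 ± 0.23). Without H4K91R replicate 2 or H4K91Q replicate 1, 0 Hox genes were called by edgeR. Without H4K91R replicate 3 or H4K91Q replicate 2, 1 was called, and without H4K91Q replicate 3, 3 were. With all libraries 13 had an unadjusted p below 0.05, and the median stayed between -0.29 and -0.18. Of 12 forebrain genes the 2 called, Otx2 and Eomes, are also epiblast genes, and the median of the list was -0.16. Pax2, a factor of spinal and hindbrain interneurons, stood at 9.32, 12 and 10.2 CPM in H4K91R and 5.10, 5.88 and 6.5 CPM in H4K91Q (-0.85 ± 0.16), a call lost without H4K91R replicate 2 or H4K91Q replicate 1.

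Axon guidance genes were lower for 6 of 47 (12.8%) and higher for 1 (2.13%). Over all tested genes 2.78% were called lower and 2.37% higher, so the share higher was near that of all tested genes. Robo3, the receptor that lets axons cross the midline, stood at 23.2, 33.7 and 24.8 CPM in H4K91R and 13.8, 13.5 and 16.5 CPM in H4K91Q (-0.90 ± 0.15), and Epha5, an ephrin receptor, at 24.7, 23.2 and 22.1 CPM against 15.5, 14.4 and 15.9 CPM (-0.62 ± 0.10). Both separated the groups and were called in all fits. Members lower numbered 2 without H4K91R replicate 2 or H4K91Q replicate 2, 3 without H4K91R replicate 1 or H4K91Q replicate 1, and 11 without H4K91Q replicate 3. The clustered protocadherins, which give neurons a surface identity, had 0 of 53 called by edgeR (19 at an unadjusted p below 0.05), 1 each by DESeq2 and limma-voom, and a median of -0.34. All but 4 members had lower means in H4K91Q, the libraries of 20 lay wholly below H4K91R, and the share over all tested genes with libraries apart in either direction was 25.4%. Members can overlap, as Pcdhga7 and Pcdhgc3 do, which end at the same base (chromosome 18, 37841873). Reads may thus be divided among them, and these counts are not of separate observations.

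**Figure D3:**
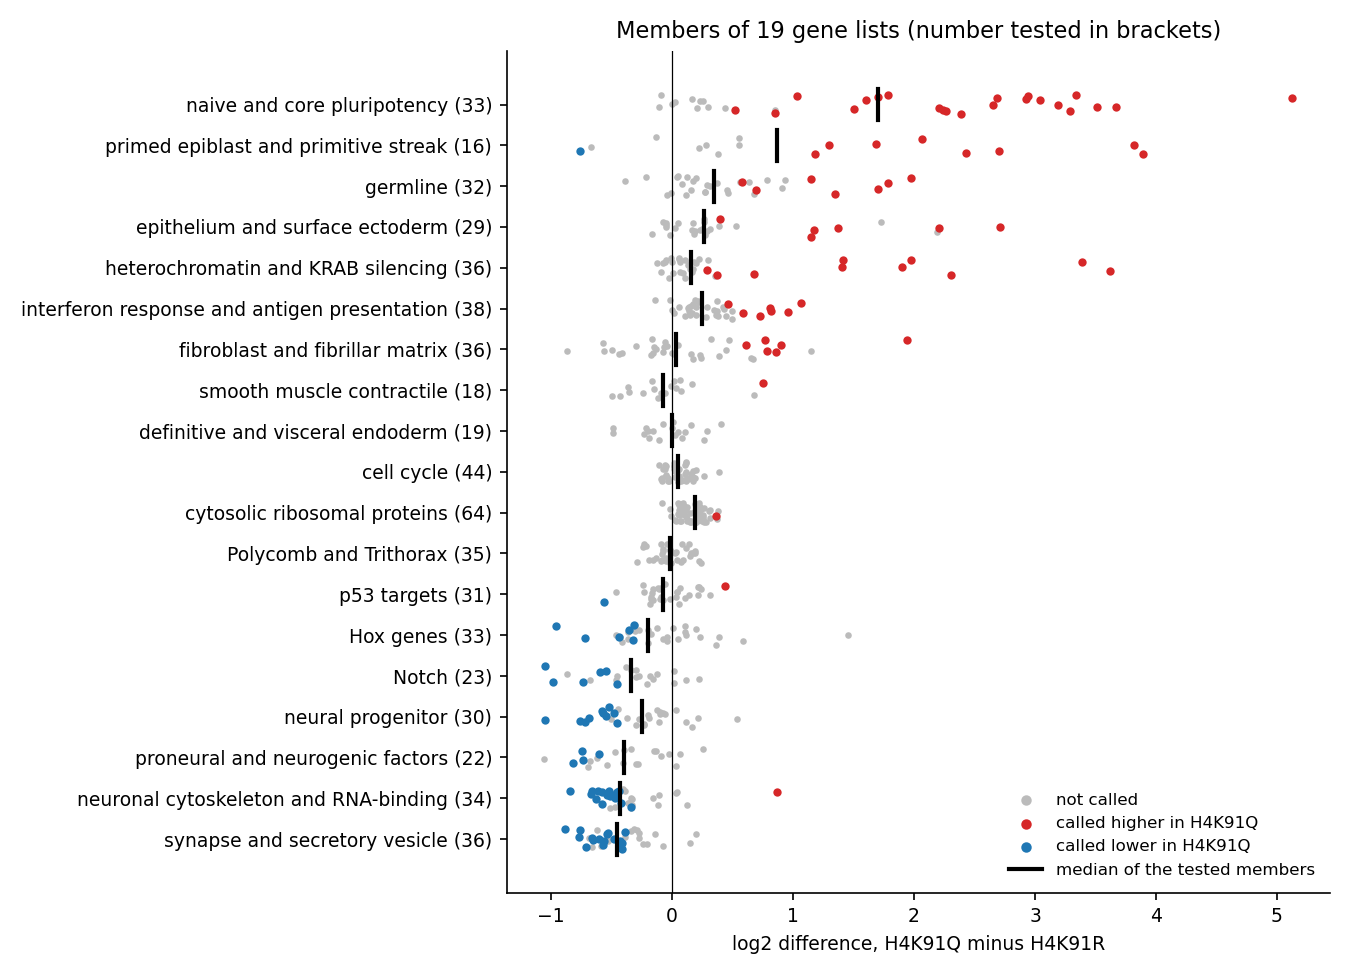
Log2 difference H4K91Q minus H4K91R (x axis) of each tested member of 19 gene lists (rows, with the number tested). Coloured points were called, and black bars are list medians. The pluripotency list reaches furthest to the right, at a median of 1.70, and among the lists drawn the 4 lowest medians are those of synapse, neuronal, proneural and Notch genes, between -0.46 and -0.34.

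Signalling genes split by ligand. Among Wnt genes Wnt7a and Wnt7b, ligands of the neural tube, were lower, Wnt7b at 17.4, 19.4 and 18.6 CPM in H4K91R against 10.2, 10.6 and 11.2 CPM in H4K91Q (-0.79 ± 0.10, adjusted p = 0.00167, edgeR). Called higher were 5 of 30 genes (16.7%, against 2.37% of all tested genes), secreted regulators and a transcription factor. Lef1, a DNA-binding partner of beta-catenin, stood at 1.5, 1.81 and 1.77 CPM in H4K91R and 3.56, 4.23 and 4.63 CPM in H4K91Q (1.30 ± 0.20). Dkk2, a secreted Wnt modulator, stood at 18.0, 35.2 and 41.8 CPM in H4K91R and 67.2, 86.9 and 71.0 CPM in H4K91Q (1.27 ± 0.22). The H4K91R libraries of Dkk2 varied more than 2-fold among themselves, and still all lay below H4K91Q. Rspo2, Rspo3 and Sfrp2 were higher by 1.49, 0.92 and 0.92, Rspo2 with an adjusted p of 0.0513 without H4K91R replicate 2 and the others lost in 6 and 10 of 17 fits. Members higher numbered 2 without H4K91R replicate 2 and 3 without H4K91R replicate 1, H4K91Q replicate 2 or H4K91Q replicate 3. In the FGF and ERK list, the ligand genes Fgf4, Fgf5, Fgf7 and Fgf8 were called higher, and Dusp4, a phosphatase that damps ERK, was lower at -0.72 ± 0.12, from 53.2, 43.6 and 41.2 CPM to 28.2, 24.9 and 31.2 CPM. Fgf8 and Fgf7 lost their calls in 7 and 5 of 17 fits, so that 2 ligand genes were left without H4K91R replicate 1 or 2 or H4K91Q replicate 2. Fgf8 also passed the filter on low counts through H4K91Q alone, so its call is only a description. Bmp5 was the called gene among 37 of the BMP and TGF-beta list, at 5.87, 6.21 and 4.83 CPM against 10.4, 11.2 and 10.5 CPM (0.92 ± 0.14). The share of this list called higher was thus 2.70%, near the 2.37% of all tested genes. Of 18 Hedgehog genes 0 were called by edgeR, DESeq2 or limma-voom, with 4 at an unadjusted p below 0.05.

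Some genes of cell types outside the neural lineage were called too. Of 36 fibroblast and fibrillar matrix genes, 6 were called higher (16.7%, against 2.37% of all tested genes) and 0 lower, with a median of 0.03 and members on both sides of 0. Postn, a matrix protein, stood at 335, 459 and 463 CPM in H4K91R and 557, 688 and 669 CPM in H4K91Q (0.61 ± 0.12), and Prrx1, a mesenchymal homeodomain factor, at 57.5, 103 and 119 CPM against 162, 185 and 173 CPM (0.90 ± 0.22). H4K91R replicate 1 was the lowest library for both. The number called was 0 without H4K91Q replicate 2, 1 without H4K91R replicate 2, 2 without H4K91Q replicate 3 and 3 without H4K91R replicate 1, and Postn lost its call without H4K91Q replicate 2 (adjusted p = 0.0822, edgeR). Prrx1 lost its call in 6 of 17 fits, DESeq2 and those without H4K91R replicate 1 or 2 or any H4K91Q replicate. Col1a1 and Col3a1 were not called, at 0.23 ± 0.14 and -0.15 ± 0.10. Of 18 smooth muscle genes Mylk, the myosin light chain kinase, was called higher (0.75 ± 0.13), and Acta2 was at 269 to 394 CPM in H4K91R and 216 to 262 CPM in H4K91Q without a call (-0.36 ± 0.13). Pecam1, an adhesion protein of endothelium that stem cells also express, was higher by 2.03 ± 0.33, while Cdh5, which defines endothelium, was not called. The part of a changed cell mix in the neural differences was not tested.

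Epithelial genes were called higher for 6 of 29 (20.7%, against 2.37% of all tested genes) and lower for 0, with a median of 0.26. Grhl2, a regulator of epithelial identity (Entrez 252973, chromosome 15, 37232821 to 37363569), stood at 0.921, 0.944 and 1.18 CPM in H4K91R, 3.65, 5.88 and 4.45 CPM in H4K91Q and 1.56, 2.26 and 1.22 CPM in H4WT (2.21 ± 0.28, adjusted p = 0.00161, edgeR). Tfap2c, a factor of trophectoderm, surface ectoderm and germ cells, stood at 2.88, 3.54 and 3.64 CPM in H4K91R and 6.90, 9.17 and 9.73 CPM in H4K91Q (1.37 ± 0.17). Both kept their calls throughout. The widely used markers Krt8, Epcam and Cdh1 were not called, and Krt8 stood at 283, 269 and 317 CPM against 283, 348 and 352 CPM, with overlap. Members called numbered 2 without H4K91R replicate 1, H4K91R replicate 2 or H4K91Q replicate 2.

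Genes of the interferon response and antigen presentation were called higher for 7 of 38 and lower for 0, with a median of 0.25. The 7 are 18.4% of the list, against 2.37% of all tested genes. Ifit3, an interferon-induced RNA sensor partner, stood at 7.14, 6.76 and 6.79 CPM in H4K91R and 13.1, 12.8 and 10.5 CPM in H4K91Q (0.81 ± 0.14). Psmb8, a subunit of the immunoproteasome, stood at 4.55, 3.70 and 5.71 CPM in H4K91R and 8.41, 9.81 and 8.67 CPM in H4K91Q (0.96 ± 0.16). Isg15, a ubiquitin-like modifier, was higher by 0.73 ± 0.16, with H4K91R replicate 3 at 24.3 CPM just below the lowest H4K91Q library at 28 CPM. The libraries of 21 members lay wholly above H4K91R and those of 0 below, where 25.4% of all tested genes had libraries apart in either direction. Across fits 2 to 11 members were called, with 2 without H4K91R replicate 1 or H4K91Q replicate 1, 4 without H4K91R replicate 2 or H4K91Q replicate 2 and 11 without H4K91R replicate 3, and Ifit3 and Psmb8 were called in all.

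The histone H4 genes themselves were not called by edgeR, DESeq2 or limma-voom, and 0 of the 8 tested had an unadjusted p below 0.05. Replication-dependent H4 transcripts lack a poly(A) tail, which limits what poly(A) libraries show of them. They summed to 16.3, 13.1 and 11.7 CPM in H4K91R, 11.8, 11.9 and 12.2 CPM in H4K91Q and 26.3 to 32.2 CPM in H4WT. H4c9 stood at 10.6, 6.21 and 6.30 CPM in H4K91R and 6.13, 6.63 and 7.85 CPM in H4K91Q (-0.20 ± 0.20). H4c18 was at 1.04 to 2.28 CPM in H4K91R and 0.729 to 1.87 CPM in H4K91Q, against 10.7 to 12.5 CPM in H4WT. The mutants overlapped for both, and the H4 genes are near-identical copies whose reads cannot be assigned with certainty. Where reads of the tagged transgene were counted was not tested.

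Among 32 histone chaperones and enzymes proposed to act on H4 lysine 91, 4 were called higher and 0 lower, with a median of 0.10. The share called higher was 12.5%, against 2.37% of all tested genes. Nasp, a chaperone of H3-H4, stood at 243, 237 and 262 CPM in H4K91R and 304, 331 and 291 CPM in H4K91Q (0.32 ± 0.08). Dtx3l, a ubiquitin ligase reported to act on H4 lysine 91, stood at 12.5, 15.6 and 15.1 CPM in H4K91R and 21.6, 20.4 and 18.3 CPM in H4K91Q, with an adjusted p of 0.0511 (edgeR). Its partner Parp9, an interferon-induced gene counted on that list too, was called at 0.47 ± 0.10. Both separated the mutants. The acetyltransferase Hat1 differed by 0.33 ± 0.09 (adjusted p = 0.0569, edgeR). Without H4K91R replicate 1 or H4K91Q replicate 1, 0 members of this list were called by edgeR, without H4K91R replicate 2 or H4K91Q replicate 2 there was 1, and without H4K91Q replicate 3 there were 7. With all libraries 9 had an unadjusted p below 0.05, and DESeq2 called 6 and limma-voom 5.

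Several housekeeping lists held few or no called genes by edgeR. Of 44 cell cycle genes, 35 Polycomb and Trithorax genes, 30 cholesterol synthesis genes and 51 respiratory chain genes 0 were called, with medians of 0.05, -0.02, -0.06 and 0.08. At an unadjusted p below 0.05 these lists held 5, 8, 4 and 5 genes. DESeq2 called 0, 1, 2 and 0, and limma-voom 0, 0, 1 and 0. Myc and Mycn, transcription factors that promote growth, differed by -0.05 and 0.12. The 64 cytosolic ribosomal protein genes had 1 call by edgeR (28 at an unadjusted p below 0.05), 7 by DESeq2 and 1 by limma-voom, and a median of 0.19, and 61 of them had a higher mean in H4K91Q. In this list 14 were called without H4K91R replicate 3 or without H4K91Q replicate 3. Summed, they stood at 35400, 34800 and 41400 CPM in H4K91R and 42500, 44400 and 39100 CPM in H4K91Q, so the groups overlapped, with H4K91R replicate 3 above H4K91Q replicate 3. Of 31 p53 targets 1 was called in each direction, Fas (0.44 ± 0.11, adjusted p = 0.0455, edgeR) and Plk3 (-0.57 ± 0.12). Each is 3.23% of the list, near the 2.37% higher and 2.78% lower of all tested genes. The call on Fas was lost in 16 of 17 fits, and that on Plk3 in 4.

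The 12 largest differences in each direction were taken from called genes whose groups did not overlap and whose level averaged 2 CPM or more over the 6 mutant libraries. Higher were Trh, Otx2, Nodal, Tdgf1, Zfp980, Fgf4, Utf1, Nanog, Dnmt3l, Platr10, Dppa4 and Morc1. Trh, the thyrotropin-releasing hormone precursor (Entrez 22044, chromosome 6, 92242061 to 92244650), stood at 0.345, 1.81 and 2.66 CPM in H4K91R, 16, 28.9 and 28.7 CPM in H4K91Q and 0.842, 4.89 and 3.92 CPM in H4WT (4.09 ± 0.48, adjusted p = 0.00112, edgeR). It varied widely within each group and still did not overlap between the mutants. These 12 genes kept their calls in all fits. Morc1 passed the filter on low counts through H4K91Q alone, so its place among them is only a description.

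Lower were Tmem178b, Elfn2, Slc6a11, Slc32a1, Ank1, Hes5, Asic4, Shank1, Acsbg1, Dlk2, Kcnc1 and Xkr4. Tmem178b, a membrane protein (Entrez 434008, chromosome 6, 39871230 to 40255150), stood at 3.80, 3.46 and 3.35 CPM in H4K91R and 1.07, 1.10 and 2.11 CPM in H4K91Q (-1.35 ± 0.28, adjusted p = 0.0187, edgeR). Kcnc1, a potassium channel of fast-spiking neurons, stood at 9.38, 11.8 and 9.95 CPM in H4K91R and 5.02, 4.63 and 6.15 CPM in H4K91Q (-0.98 ± 0.16). Asic4, an acid-sensing channel subunit, stood at 4.78, 4.88 and 4.53 CPM in H4K91R and 1.93, 2.39 and 2.70 CPM in H4K91Q (-1.03 ± 0.21). Hes5, Shank1 and Kcnc1 were called in all fits, and the other 9 each lost their call in 1 to 6 fits that left out a mutant library or thinned the counts.

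The H4WT level placed the calls in each direction differently. For all tested genes the H4WT mean lay between the mutant means for 2271 (15.4%), above both for 6352 (43.0%) and below both for 6138 (41.6%). For the 350 called higher it lay between them for 173 (49.4%), and for the 138 of these at least 2-fold higher for 88 (63.8%). Pluripotency genes were of this kind, with H4WT between the mutants for 18 of the 22 called. For the 411 called lower it lay below both for 341 (83.0%), as for 16 of 17 called synapse genes, 15 of 17 called neuronal genes and all 4 called proneural genes. For genes called lower H4K91Q was thus mostly nearer to H4WT than H4K91R was, while for genes called higher H4WT lay outside the mutants about as often as between them. Since these places reuse the mutant means that made the calls, they are given as a description, with no test.

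**Figure D4:**
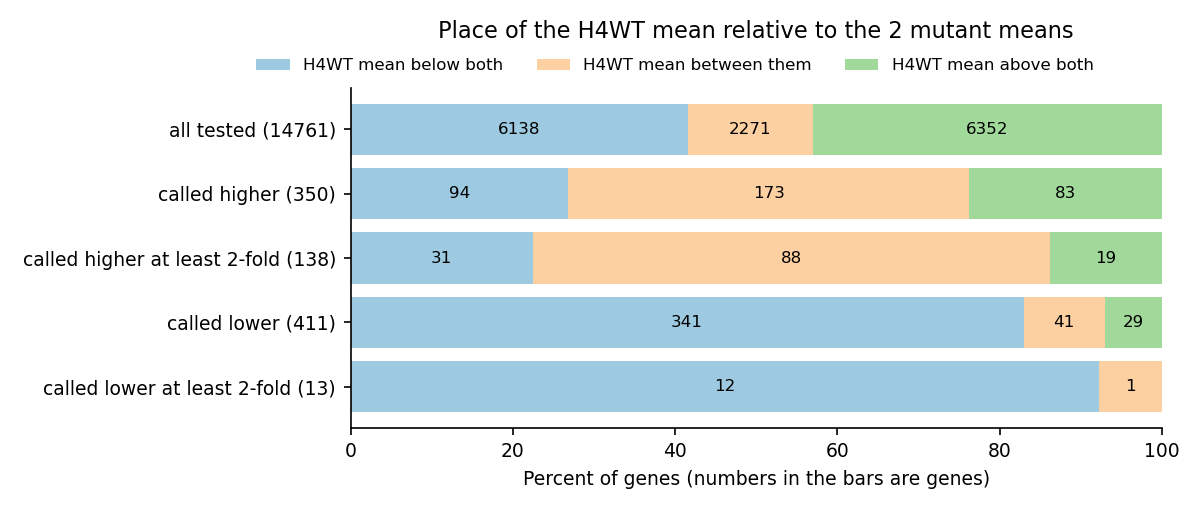
Share of genes (x axis, percent) whose H4WT mean CPM lay below both mutant means, between them or above both, for all tested genes and for 4 sets of called genes (rows). Among genes called higher at least 2-fold 88 of 138 have H4WT between the mutants, and among genes called lower 341 of 411 have it below both.

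The called genes were also described by length, level and promoter composition. The median span was 23.7 kb over all tested genes, 21.6 kb for those higher, 15.7 kb for those at least 2-fold higher and 34.0 kb for those lower. Median mutant CPM was 26.9, 11, 2.88 and 25.3 for the same sets, so genes at least 2-fold higher had the lowest median level of these sets, while genes lower were close to all tested genes. The median number of CpG dinucleotides in the 300-base window was 20 for all tested genes, 11 for genes higher, 9 for those at least 2-fold higher and 21 for genes lower. These properties go together with expression level and function and were not tested. By chromosome the median log2 difference ran from -0.042 on chromosome 15 to 0.056 on chromosome 13, leaving out the Y chromosome with 5 tested genes and 18 genes without a chromosome, and the share called higher was largest on the X chromosome (4.78%) and chromosome 13 (3.61%).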

How the data were processed

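Poly(A) RNA of 9 libraries was sequenced after RNA isolation with QIAGEN RNeasy and library preparation with NEBNext Ultra II, per the labels' protocols. The deposited table holds expected counts per Entrez gene, with all values already whole. Salmon 0.8.2, DESeq2 and mm10 are named in the submitters' processing notes, with no roles. The gene annotation, any trimming and the strand option were not given in the sources used here. Of 24100 genes, 24045 were matched to symbols of the RefSeq GRCm38.p6 table.

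Genes were kept by edgeR's filterByExpr (minimum count 10), scaled by TMM (factors 0.911 to 1.06) and fitted with edgeR 4.0.16 (quasi-likelihood, R 4.3.3) over all 9 libraries, with 6 residual degrees of freedom. All 14761 tested genes entered the Benjamini-Hochberg adjustment of the contrast H4K91Q minus H4K91R. Values after ± are standard errors, and CPM uses the TMM scale. Mutant totals of 9743050 to 22661768 set the precision. The 17 alternatives were RLE and library-size scaling, no filter, DESeq2 1.42.0, limma-voom (limma 3.58.1), the mutant libraries alone, a replicate block, thinning to equal totals, and leaving out each of the 9 libraries. Libraries of a group differed beyond sampling noise, so none was merged.

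The comparison and the gene lists were chosen with earlier results of these data known. Genes were named as the 12 largest called differences in each direction (averaging 2 CPM or more over the 6 mutant libraries, groups not overlapping) and up to 3 called members per list and direction by adjusted p. Other named genes were chosen after their values were seen.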

Additional observations from a re-analysis of the deposited data

How the results depend on the processing

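No named gene that was called changed direction under the 17 alternatives. List medians near 0 did, among them those of definitive and visceral endoderm (-0.094 to 0.004), smooth muscle (-0.17 to 0.092), p53 targets (-0.102 to 0.044) and histone H4 (-0.484 to 0.128). Of 179 named genes that were called, 68 stayed called in every fit that gave them an adjusted p, and 111 lost the call in at least 1. Among the 68, Pla2g1b and Zscan4f had an adjusted p in 15 of the 17. Leaving out 1 library at a time gave 110 to 543 genes higher, 68 to 550 lower, 73 to 155 at least 2-fold higher and 1 to 33 at least 2-fold lower. The lowest counts came without H4K91Q replicate 2, except the 68 without H4K91R replicate 2. Leaving out an H4WT library kept each count within 1.5 times. With the mutant libraries alone, 303 of the 350 higher calls and 360 of the 411 lower calls were kept. DESeq2 called 619 genes lower, and RLE scaling called 20 at least 2-fold lower. Thinned to equal totals, 245 genes were higher and 318 lower. With the replicate number as a block, 448 were higher and 563 lower, and 158 and 20 of these at least 2-fold. Same-numbered mutant libraries correlated in their deviations at 0.198, -0.052 and -0.026, and unlike-numbered ones at -0.201 to 0.223. With 3 libraries per group, these values cannot settle whether the numbers pair the samples. Low counts in H4K91R limit the folds of genes such as Gdf3, Fgf4 and Dppa3.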

Other observations

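The genes in this section were chosen after their values were seen. The smallest adjusted p of all tested genes belonged to Cmah, the hydroxylase that makes N-glycolylneuraminic acid (chromosome 13, 24327404 to 24477289). It stood at 26.0, 34.4 and 23.5 CPM in H4K91R, 91.9, 115 and 117 CPM in H4K91Q and 65.5, 60.0 and 59.6 CPM in H4WT. The groups were fully apart, with H4WT in the middle, and the log2 difference of the mutants was 1.95 ± 0.13 (adjusted p = 2.37e-05, edgeR). Among noncoding RNAs, Miat stood at 82.9, 101 and 80.1 CPM in H4K91R, 41.9, 43.3 and 50.1 CPM in H4K91Q and 12.3 to 16.3 CPM in H4WT (-0.97 ± 0.11). Pim2, a serine/threonine kinase gene on the X chromosome, was higher by 1.36 ± 0.14. All of these were called in all 17 alternatives.

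Serpinb genes, inhibitors of intracellular proteases, were called higher for 6 of 12 tested, with a median log2 difference of 0.73. Over all tested genes 2.37% were called higher. All 6 lost their calls without H4K91R replicate 2, and 5 of them without H4K91Q replicate 2. Serpinb9b stood at 6.45, 4.48 and 6.5 CPM in H4K91R and 10, 12.3 and 10.6 CPM in H4K91Q (0.91 ± 0.17). All 6 called members lie on chromosome 13, between 32842092 and 34002794. They were the only genes called higher among 35 tested in the 5-Mb window from 30 to 35 Mb there. Genes of the placental prolactin family were called higher for 2 of 14, Prl2a1 and Prl2c5, with a median of 0.56. Both lost their calls without H4K91Q replicate 1 or 2, and Prl2c5 also without H4K91R replicate 2. Tpbpa, a marker of spongiotrophoblast, stood at 15.0, 17.9 and 22.9 CPM in H4K91R and 34.0, 35.1 and 27.1 CPM in H4K91Q (0.81 ± 0.16), without overlap, but lost its call without H4K91R replicate 2, H4K91Q replicate 1 or H4K91Q replicate 2.

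A pair of called genes had no count in any H4K91R library. Both passed the filter on low counts through H4K91Q alone, the group where they are high, so their calls and folds are only a description. The same holds for Dppa3, Gdf3, Lefty2, Morc1 and Fgf8, named above, which had some counts in H4K91R. Over the 3 H4WT libraries Zscan4f had 4 counts and Pla2g1b had 2. Zscan4f, of the transient 2-cell-like state of stem cells, had 53 counts over the 3 H4K91Q libraries, at least 11.8-fold higher than a floor of 3 counts over the pooled H4K91R libraries. Pla2g1b, a secreted phospholipase, had 62 counts in H4K91Q, at least 13.8-fold higher than the same floor.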
